A study of Homo sapiens with 6 samples.

Results

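The genes described here encode surface proteins by which a target cell engages activating receptors of natural killer (NK) cells. MICA, MICB, ULBP1, ULBP2 and ULBP3 bind the receptor NKG2D, PVR and NECTIN2 bind DNAM-1, NCR3LG1 (B7-H6) binds NKp30, and CD276 (B7-H3) is a B7 family protein. They were chosen by symbol, as the rows of the count files whose Ensembl identifier carries one of these names. The rule uses no value measured here, though earlier results of these data were known when the genes were listed. All 9 were found among the 60671 gene identifiers of the files, and 6 of them had enough reads to be among the 12364 genes tested. The label of activating ligand is less settled for some of them than for others. PVR and NECTIN2 also bind inhibitory receptors such as TIGIT, and CD276 has been described as both stimulating and inhibiting lymphocytes, with no agreed receptor.

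The libraries came from K562, a chronic myeloid leukaemia line with erythroid features that is the usual target cell of NK killing assays, in part because it carries little MHC class I. A single clone was used, with the GpC methyltransferase M.CviPI fused to Lamin B1, tagged with FLAG and a nuclear localization signal, and induced by doxycycline. In 3 separate cultures the clone was given 1 µM GSK343, an inhibitor of the histone methyltransferase EZH2 (the EZH2i group), and in 3 it was given 0.1% DMSO, in each case for 72 h. All 6 cultures, the DMSO ones included, also had 1 µg/mL doxycycline for the last 24 h, so no library shows the clone without the induced fusion protein. RNA was read by QuantSeq 3′ mRNA sequencing, which places about 1 read per transcript near its polyadenylated end. The comparison addresses how transcript levels of the ligands differed after 72 h of EZH2 inhibition. The RNA of whole cultures was measured, so a change in the number of expressing cells and a change in RNA per cell cannot be told apart, and surface protein was not measured.

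An NK cell weighs activating against inhibitory signals from each cell it touches. NKG2D ligands are distant relatives of MHC class I that most healthy cells carry sparsely and that rise with DNA damage, heat shock, viral infection and transformation. They are also removed from the surface by proteases, which leaves soluble ligand that can blunt the receptor. Inhibitory receptors read mainly MHC class I molecules, and a target that lacks these and shows activating ligands is killed readily. EZH2 is the catalytic subunit of Polycomb repressive complex 2, which places H3K27me3 mostly at CpG-rich promoters of silent genes.

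Depth ranged from 6327544 to 8987768 reads on genes per library, and EZH2i replicate 3 had a larger share of reads outside genes, 12.7%, than the 7.43% to 8.51% of the other libraries. EZH2 itself averaged 335 CPM in DMSO and 293 CPM in EZH2i (CPM, reads scaled to a common library size with edgeR's TMM factors), a log2 fold change of -0.19 (95% interval -0.41 to 0.02, edgeR adjusted p = 0.306). The inhibitor blocks the activity of the enzyme, so this level is no check of the labels. Of 9 erythroid markers of K562, all had reads, with a summed level of 619 to 660 CPM in DMSO and 708 to 834 CPM in EZH2i, and the globin genes HBG2 and HBZ were called higher in EZH2i (HBG2 not when any DMSO library was left out). Other genes of the same strand cover 218 of the last 500 bases of HBG1, 345 of HBG2, 205 of HBZ and 447 of HBE1. How many reads the globin counts lost in this way was not tested. Markers of NK cells summed to 4.27 to 5.63 CPM in DMSO and 6.68 to 7.30 CPM in EZH2i, with KLRD1, GNLY and GZMB at 0 reads in every library. NCR1 averaged 2.58 CPM in DMSO and 3.86 CPM in EZH2i without overlap (edgeR adjusted p = 0.285). KLRF1, at 1.33 and 1.39 CPM, and NCR3 overlapped between the groups. NKG7 and PRF1, at 5 reads or fewer per library, also had EZH2i above DMSO without overlap. Of all genes tested, 13.3% had EZH2i above DMSO in this way, and no NK marker was called. T and B cell markers summed to 62.6 to 75.0 CPM and 85.4 to 104 CPM, nearly all of it CD3D, which was called higher (not when any DMSO library or EZH2i replicate 1 was left out), while MS4A1 had 0 reads. Monocyte and macrophage markers summed to 5.46 to 5.79 CPM and 4.01 to 8.13 CPM, with CSF1R at 0. CD68 held most of this sum, and another gene of the same strand covers 413 of its last 500 bases. The part of these markers in the ligand results was not tested.

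The promoters of 3 members are printed because CD276 was the only member whose level passed the test and because MICA and MICB, the most abundant members in DMSO per length, have the most alike promoters of the 9. Each run holds 250 bases before and 50 bases after the RefSeq start (GRCh38.p14, plus strand, 5′ to 3′). Capitals mark the GC box GGGCGG, on either strand and with overlapping matches merged, in the CD276 window at chr15:73684133-73684432, and the heat shock element core GAANNTTC in the MICA window at chr6:31403345-31403644 and the MICB window at chr6:31497895-31498194.
CD276: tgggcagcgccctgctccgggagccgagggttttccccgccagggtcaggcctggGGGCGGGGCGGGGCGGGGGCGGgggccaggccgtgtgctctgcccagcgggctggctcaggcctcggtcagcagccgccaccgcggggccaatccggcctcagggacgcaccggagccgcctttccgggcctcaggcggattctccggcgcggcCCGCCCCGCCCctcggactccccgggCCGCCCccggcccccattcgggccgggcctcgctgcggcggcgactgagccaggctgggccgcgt
MICA: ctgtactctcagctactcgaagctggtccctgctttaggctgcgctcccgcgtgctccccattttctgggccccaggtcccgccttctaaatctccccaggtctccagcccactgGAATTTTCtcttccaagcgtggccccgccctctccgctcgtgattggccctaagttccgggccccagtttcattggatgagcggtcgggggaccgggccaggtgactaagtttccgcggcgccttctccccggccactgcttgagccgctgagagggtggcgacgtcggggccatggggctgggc
MICB: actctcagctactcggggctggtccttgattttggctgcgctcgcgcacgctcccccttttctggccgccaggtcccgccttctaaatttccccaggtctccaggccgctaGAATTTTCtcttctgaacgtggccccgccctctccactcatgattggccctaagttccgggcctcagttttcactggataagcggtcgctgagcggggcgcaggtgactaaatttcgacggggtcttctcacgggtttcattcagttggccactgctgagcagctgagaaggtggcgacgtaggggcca

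The CD276 window held 37 CpG dinucleotides and 80.3% G and C, against a median of 14 CpG and 58.7% over the 35116 RefSeq windows of this length. It was the most CpG-rich window of the members: 11.3% of all windows held as many CpG. NCR3LG1 followed with 32 CpG, and the others held from 19 in ULBP2 to 27 in ULBP3 and PVR. GGGCGG, searched on both strands and counting overlaps, was present 7 times in the CD276 window and 6 times in that of ULBP3. NECTIN2 held it 3 times, ULBP1 and NCR3LG1 2 times each, MICA, MICB and ULBP2 1 time each, and PVR 0 times. Of all windows, whatever their G and C content, 45.0% held GGGCGG at least 1 time and 1.50% held it 7 times or more. A second CD276 start, at chr15:73684520-73684819, had 28 CpG and held GGGCGG 2 times. In a pairwise alignment the MICA and MICB windows matched at 246 of 284 aligned bases (86.6%), while the next most alike pair, ULBP3 and NECTIN2, matched at 63.4%. GAANNTTC was found in these windows only among those of the members, 135 bases before the start in MICA and 139 bases before it in MICB, and 6.77% of all windows held it on either strand. TGACG, the core of the site bound by factors of the CREB and ATF families, occurred 3 times in ULBP1 and 3 times in ULBP2, as in 1.40% of windows with 3 or more. These matches describe the letters of the windows, and no binding was measured here.

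CD276 (ENSG00000103855, chr15:73683966-73714514, plus strand) was the member that changed. It had 29, 47 and 49 reads in DMSO replicates 1 to 3 and 103, 112 and 77 reads in EZH2i replicates 1 to 3. As levels, these were 4.54, 5.58 and 5.56 CPM in DMSO and 14.0, 14.1 and 11.0 CPM in EZH2i. The lowest EZH2i library lay well above the highest DMSO library. The mean rose from 5.23 ± 0.598 to 13.0 ± 1.74 CPM (SD, n = 3 in each group), a fold of 2.48 (95% interval 1.84 to 3.34) or 1.31 on the log2 scale (SE 0.205, adjusted p = 0.00155 in edgeR's quasi-likelihood fit, adjusted by Benjamini and Hochberg over all genes tested). It was thereby the single member called higher of 6 tested, and no member was called lower. Over all 12364 genes, 3.34% were called higher (413 genes) and 0.922% were called lower (114 genes). With each library left out in turn, the log2 fold change of CD276 stayed between 1.22 and 1.41 with adjusted p from 0.00181 to 0.0149. By log2 fold change CD276 was rank 170 from the highest and by p rank 51 from the smallest of all genes tested, so many genes moved further. Even after the rise, its mean level of 13.0 CPM lay far below the 114 CPM of MICB in EZH2i.

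**Figure D1:**
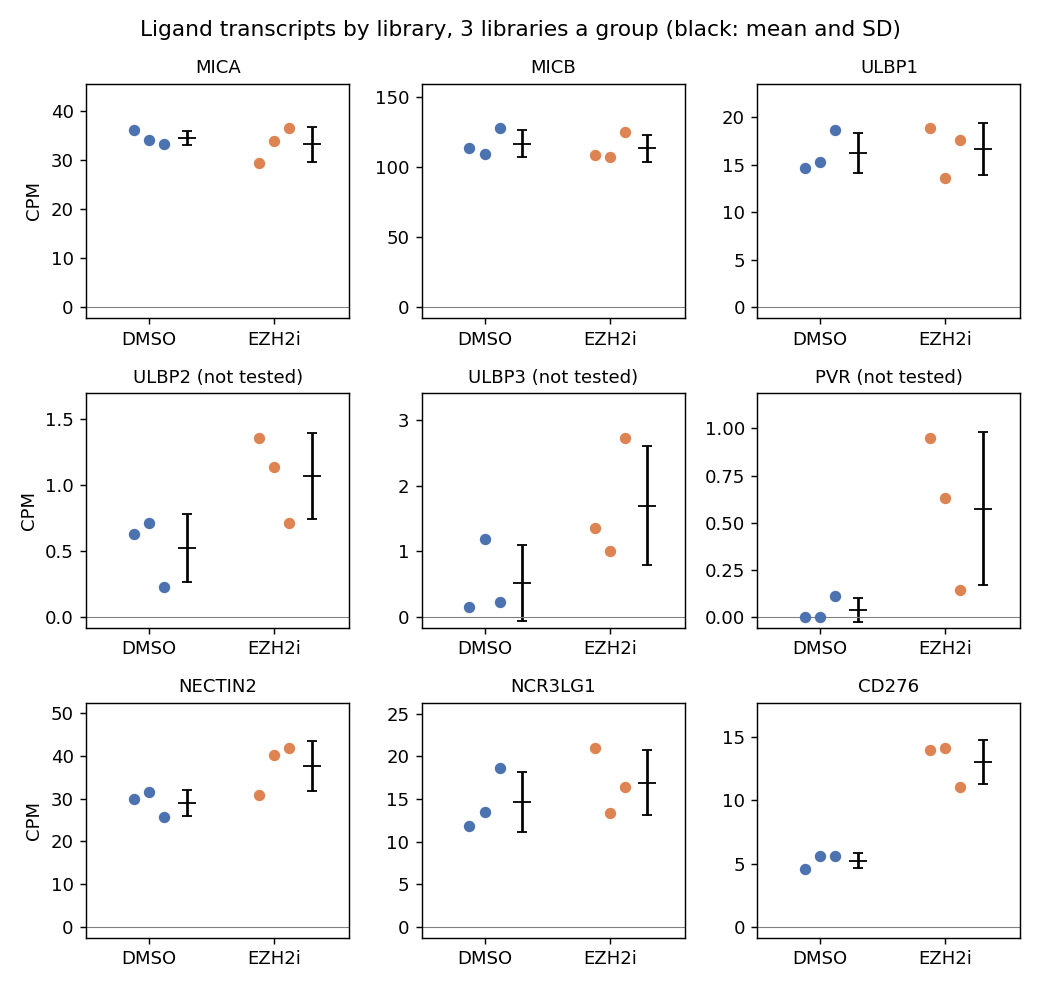
Level in CPM (vertical axis, a separate linear scale for each gene) of the 9 ligand transcripts in the 3 DMSO (blue) and 3 EZH2i (orange) libraries, with the group mean and SD in black. CD276 separated clearly, from 4.54 to 5.58 CPM in DMSO against 11.0 to 14.1 CPM in EZH2i, while the points of MICA, MICB, ULBP1, NECTIN2 and NCR3LG1 overlapped between the groups and those of ULBP2, ULBP3 and PVR lay near 0.

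Genes that followed a like profile over the 6 libraries were sought by the smallest root mean square difference of log2 CPM centred on each gene's mean, over 12358 tested genes outside the members. CLU, which encodes the secreted chaperone clusterin, was nearest, with a difference of 0.0858 log2 units. Its level went from 7.09 ± 0.654 to 15.9 ± 1.72 CPM (log2 fold change 1.16, edgeR adjusted p = 0.00157). AMHR2, the receptor of anti-Müllerian hormone, came next with 0.125 log2 units and a log2 fold change of 1.35. ARHGAP26, which encodes a GTPase activating protein, was the third with 0.144 log2 units and a log2 fold change of 1.49, at 1.30 CPM in DMSO and 3.71 CPM in EZH2i. With each library left out in turn, CLU and AMHR2 were called in 6 of 6 fits and ARHGAP26 in 3, not without DMSO replicate 1, DMSO replicate 3 or EZH2i replicate 2. With 6 libraries in 2 groups, likeness of this kind rests mostly on the size of the step between the groups.

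The NKG2D ligands made up most of the ligand RNA and did not differ detectably in the members that could be tested. MICB (ENSG00000204516, chr6:31494881-31511124, plus strand) had 113, 109 and 128 CPM in DMSO and 108, 107 and 125 CPM in EZH2i, from 724 to 1124 reads per library. The ranges of the groups were nearly the same. Its log2 fold change was -0.04 (SE 0.108, 95% interval -0.27 to 0.19, edgeR adjusted p = 0.882), an interval of 0.831 to 1.14 times the DMSO level.

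MICA (ENSG00000204520, chr6:31399784-31415315, plus strand), the paralog 79.6 kb away, had 36.0, 34.1 and 33.1 CPM in DMSO and 29.3, 33.8 and 36.4 CPM in EZH2i, from 216 to 292 reads. EZH2i held both the lowest and the highest library. The log2 fold change was -0.05 (SE 0.127, 95% interval -0.32 to 0.22, edgeR adjusted p = 0.870), an interval of 0.801 to 1.16 times the DMSO level. The share of MICA in the reads of MICA and MICB together does not depend on how a library is scaled. It averaged 22.8% ± 1.93 over the 3 DMSO libraries and 22.6% ± 1.34 over the 3 EZH2i libraries (SD), -0.248 percentage points apart (exact permutation test, two-sided, p = 0.9, Benjamini-Hochberg adjusted over the 2 shares examined 0.9), where 3 against 3 libraries cannot give a p below 0.1. Both genes carry many alleles, and how reads of the clone's alleles were shared between the paralogs is not known from a count table.

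ULBP1 (ENSG00000111981, chr6:149963943-149973715, plus strand), a glycolipid-anchored ligand known as a target of ATF4, had 14.7, 15.3 and 18.6 CPM in DMSO and 18.8, 13.6 and 17.6 CPM in EZH2i. The groups overlapped throughout. The log2 fold change was 0.03 (SE 0.169, 95% interval -0.32 to 0.39, edgeR adjusted p = 0.942), an interval of 0.799 to 1.31 times the DMSO level, from 94 to 164 reads. Summed, the 5 NKG2D ligands held 168 ± 10.1 CPM in DMSO and 166 ± 13.9 CPM in EZH2i.

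ULBP2 and ULBP3, the other members of the family on chromosome 6, were close to the limit of detection and fell below the filter on low counts. ULBP2 (ENSG00000131015, chr6:149942014-149949235, plus strand) had 4, 6 and 2 reads in DMSO and 10, 9 and 5 reads in EZH2i. In CPM the groups did not overlap, by a narrow margin, with a highest DMSO value of 0.712 and a lowest EZH2i value of 0.716. The summed reads, 12 against 24, gave a depth-corrected ratio of 2.17 (exact 95% interval 1.05 to 4.77), an interval of counting error only, which leaves out the spread between cultures. Among the genes tested, 24.5% had groups that did not overlap and 13.3% had EZH2i above DMSO.

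ULBP3 (ENSG00000131019, chr6:150061053-150069121, minus strand) had 1, 10 and 2 reads in DMSO and 10, 8 and 19 reads in EZH2i. DMSO replicate 2 lay within the EZH2i range, and EZH2i replicate 3 held more reads than any other library. The summed reads were 13 against 37, a ratio of 3.09 (exact 95% interval 1.61 to 6.34, counting error only). ULBP3 passed the filter in 4 of the 6 fits with a library left out and was called in none. In edgeR's fits its log2 fold change was 1.57 when no filter was applied, 2.99 without DMSO replicate 2 (adjusted p = 0.0748), 1.24 without DMSO replicate 1 and 1.18 without DMSO replicate 3, so single libraries decide its size. When the filter was dropped, edgeR's quasi-likelihood test gave adjusted p = 0.592 for ULBP2 and 0.123 for ULBP3. Of the last 500 bases of ULBP2, 8.6% of the 50-base stretches also occur in RAET1L, a neighbouring family member, which had 0 reads in every library.

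The genes of the DNAM-1 ligands lie 180 kb apart on chromosome 19, and only NECTIN2 had enough reads to be tested. NECTIN2 (ENSG00000130202, chr19:44846175-44889223, plus strand), also an adhesion protein of cell junctions, had 29.9, 31.5 and 25.6 CPM in DMSO and 30.9, 40.2 and 41.8 CPM in EZH2i. EZH2i replicate 1 lay between DMSO replicates 1 and 2, and the other EZH2i libraries were above all of DMSO. The means were 29.0 ± 3.01 and 37.6 ± 5.91 CPM (SD, n = 3 each). They gave a log2 fold change of 0.38 (SE 0.142, 95% interval 0.08 to 0.68) that did not pass after adjustment (edgeR adjusted p = 0.148). Without EZH2i replicate 1 the value was 0.50 and passed (adjusted p = 0.0318). CD276 and NECTIN2 were the only tested members with an unadjusted p under 0.05, which 2366 of all genes tested had.

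PVR (ENSG00000073008, chr19:44643798-44666162, plus strand), known also as the poliovirus receptor CD155, had 0, 0 and 1 read in DMSO and 7, 5 and 1 reads in EZH2i. In CPM the groups did not overlap, though DMSO replicate 3 at 0.113 and EZH2i replicate 3 at 0.143 each rest on a single read. The ratio of the summed reads, 13 against 1, was 14.1 with an exact 95% interval of 2.12 to 600.3 (counting error only). In edgeR's fit without the filter the adjusted p was 0.173. At the median depth, 3 reads, the upper limit that a count of 0 allows, correspond to 0.395 CPM.

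The low count of PVR cannot be read as a low level of its RNA. In GENCODE version 44 the gene ENSG00000279095, a transcript of unsettled type on the same strand (chr19:44664131-44666158), lies wholly within the last exon of PVR and ends 4 bases before it, so that it covers 496 of the last 500 bases, where 3′ reads fall. A read there belongs to both genes, and a counter that lists such reads as ambiguous gives them to neither. ENSG00000279095 had 0 reads in all 6 libraries. The counting mode and strand setting are not given in the sources used here, and the share of PVR reads lost in this way was not tested. Of 12 annotated PVR transcripts, 2 end inside or within 4 bases of the overlapping gene and 10 end elsewhere, 8 of these in the uncovered part of the last exon. For the other 8 members no other gene of either strand covered any of the last 500 bases.

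**Figure D2:**
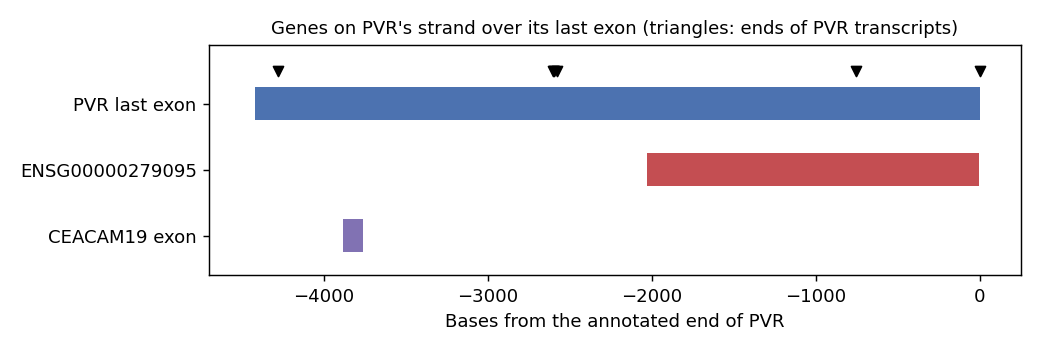
Map of the last exon of PVR, with distance in bases from the annotated end of PVR on the horizontal axis, and bars for the last exon, for ENSG00000279095 and for an exon of CEACAM19, all on the strand of PVR. Triangles mark the ends of PVR transcripts that fall in this exon, and the red bar shows that ENSG00000279095, 2028 bases long, covers the exon up to 4 bases from its end.

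NCR3LG1 (ENSG00000188211, chr11:17351800-17377341, plus strand), a B7 family protein found mainly on tumour cells, had 11.9, 13.5 and 18.6 CPM in DMSO and 21.0, 13.4 and 16.5 CPM in EZH2i. The highest value was an EZH2i library and the ranges overlapped. The log2 fold change was 0.19 (SE 0.198, 95% interval -0.22 to 0.61, edgeR adjusted p = 0.646), an interval of 0.856 to 1.53 times the DMSO level. With single libraries left out it ranged from 0.01 to 0.41, with no call.

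**Figure D3:**
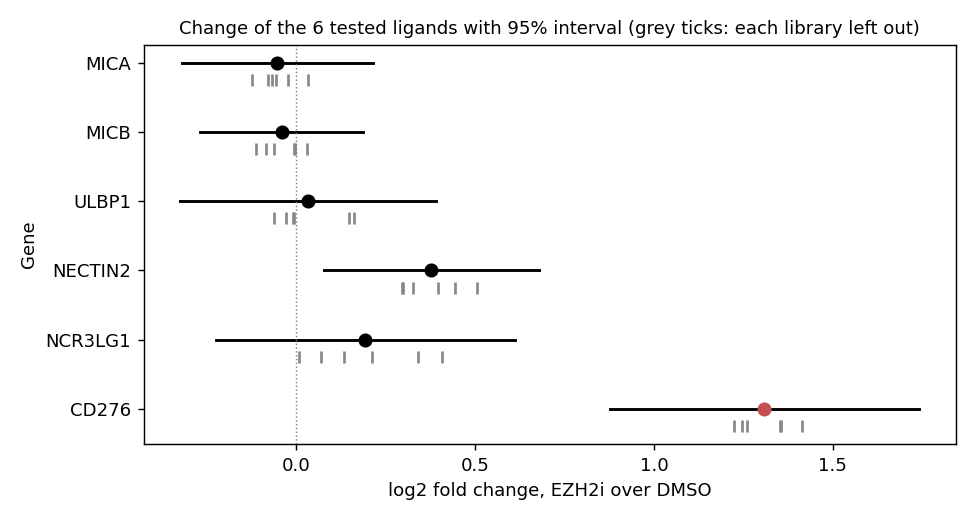
Log2 fold change of EZH2i over DMSO (horizontal axis) for the 6 tested ligand genes, with the 95% interval as a line and the values with each of the 6 libraries left out as grey ticks. The interval of CD276 (red, adjusted p under 0.05) ran from 0.88 to 1.74, that of NECTIN2 from 0.08 to 0.68, and those of MICA, MICB, ULBP1 and NCR3LG1 spanned 0.

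Per kb of merged exons, the level in DMSO was highest for MICB at 41.7 CPM per kb, followed by MICA at 8.93, NECTIN2 at 7.75, ULBP1 at 5.05, NCR3LG1 at 2.31 and CD276 at 0.953 CPM per kb. ULBP2 at 0.391 and ULBP3 at 0.168 overlapped in their libraries, and PVR was counted at 0.00363 CPM per kb, which is not ranked because another gene covers its end. In EZH2i the order had MICB at 40.6 CPM per kb, then NECTIN2 at 10.1 and MICA at 8.61, which overlapped in their libraries. ULBP1 followed at 5.20, and CD276 at 2.38 CPM per kb overlapped with NCR3LG1 at 2.66 CPM per kb, from which it had been separate in DMSO. A 3′ tag library gives about 1 read per transcript whatever its length, so CPM without the division was ordered too. In it ULBP1 and NCR3LG1 overlapped in DMSO, as they did with CD276 in EZH2i.

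MICB held 53.6% ± 1.90 of the summed CPM of the 9 ligands in DMSO and 48.4% ± 0.999 in EZH2i, and CD276 held 2.40% ± 0.247 and 5.61% ± 1.06 (SD over 3 libraries). The share of NECTIN2 was 13.4% and 16.0%, that of MICA 15.9% and 14.1%, that of ULBP1 7.44% and 7.13%, and that of NCR3LG1 6.72% and 7.26%. The total of the 9 was 217 ± 10.8 CPM in DMSO and 234 ± 14.9 CPM in EZH2i, with overlapping libraries. The median log2 fold change of the 6 tested members was 0.11, beside a median of -0.000215 over all genes tested.

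**Figure D4:**
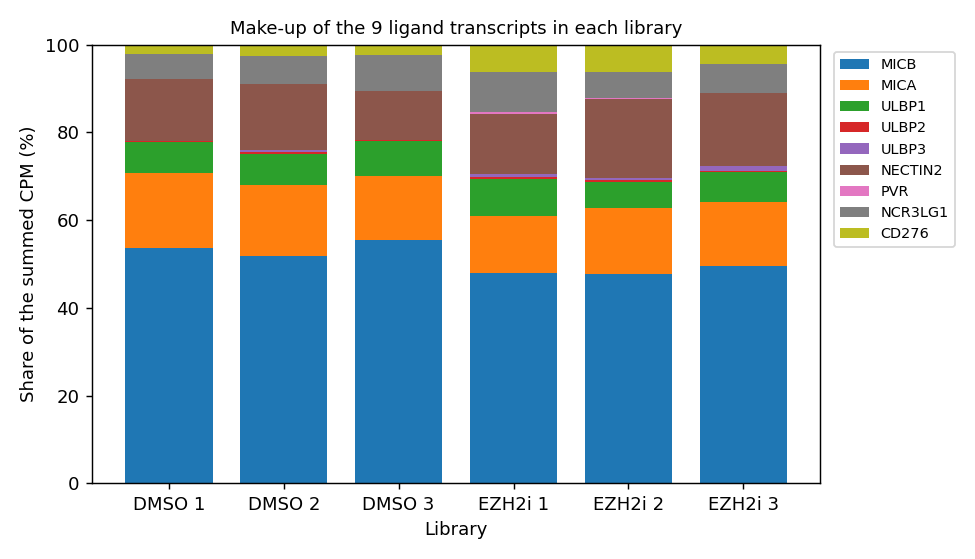
Share in percent (vertical axis) of each ligand transcript in the summed CPM of the 9 ligands, stacked for each of the 3 DMSO and 3 EZH2i libraries. MICB was the largest part of each library, and the CD276 part at the top averaged 2.40% in DMSO and 5.61% in EZH2i.

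Tested genes within 250 kb of each member were counted, beside the 3.34% of all genes tested that were called higher. CD276 had 1 such gene, which was not called, and no tested neighbour of ULBP1, ULBP2, ULBP3 or NCR3LG1 was called. Of 7 tested genes near PVR and 11 near NECTIN2, 1 was higher, the same gene BCAM in both (log2 fold change 1.85, edgeR adjusted p = 0.0414), which encodes the Lutheran blood group glycoprotein. Near MICA 1 of 19 was higher, HLA-B, and near MICB 2 of 18, HLA-B and MPIG6B (log2 fold change 1.83, edgeR adjusted p = 0.0167), an inhibitory receptor of the platelet lineage. HLA-B passed the filter on low counts through its EZH2i libraries only. No neighbour was called lower. BCAM and MPIG6B are named here because of their values. BCAM was not called when any DMSO library or EZH2i replicate 1 was left out, and MPIG6B not without DMSO replicate 1, DMSO replicate 3 or EZH2i replicate 2.

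Other genes of the recognition pathway were taken as lists. Of 11 other activating ligands, 8 had a read and 6 were tested, and 0 passed the test in either direction (unadjusted p under 0.05 in 1, and DESeq2 called 0), with a median log2 fold change of 0.04 and a range of -0.02 to 0.37. The top of that range was ICAM2, an adhesion ligand of the integrin LFA-1, whose groups did not overlap (edgeR adjusted p = 0.112) and whose end is covered by PRR29 on the opposite strand. The RAET1 genes, further NKG2D ligands, had 1 read in all, in RAET1G.

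Among 15 ligands of inhibitory receptors, 12 had a read, 6 were tested, 1 was higher and 0 were lower, with a median of -0.02. The gene called higher was HLA-B, a class I molecule read by inhibitory KIR receptors. It passed the filter on low counts through its EZH2i libraries only, the group where it is high. With 10 reads required in every library, 0 genes of the list were called. It had 2, 7 and 3 reads in DMSO and 12, 24 and 23 reads in EZH2i, a log2 fold change of 2.35 (95% interval 1.30 to 3.40, edgeR adjusted p = 0.0131) at 0.495 and 2.65 CPM. Reads of class I genes can be split between near-identical paralogs, so this value is uncertain, and it was not called without DMSO replicate 1 (adjusted p = 0.0728) or DMSO replicate 3 (adjusted p = 0.0750). HLA-F and HLA-G had 0 reads in every library.

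None of the 5 ligand sheddases and helpers of shedding passed (unadjusted p under 0.05 in 1, and DESeq2 called 0), with a median log2 fold change of -0.11. The lowest was ADAM9, a metalloprotease, at 34.9 and 24.9 CPM (log2 fold change -0.48, edgeR adjusted p = 0.0518). All 11 regulators known for ligand genes were tested and 0 passed (unadjusted p under 0.05 in 1, and DESeq2 called 0), with a range of -0.31 to 0.17. For RBM4 all of the last 500 bases are covered by RBM14-RBM4 on the same strand, so its count may be incomplete. Among them ATF4, the stress transcription factor, was at 584 and 561 CPM (log2 fold change -0.06, edgeR adjusted p = 0.862). Of 7 genes for the NK receptors themselves, 4 had a read and 3 were tested, with none called (unadjusted p under 0.05 in 0, and DESeq2 called 0). KLRK1 had 0 reads, but KLRC4-KLRK1 on the same strand covers all of its last 500 bases. In 4 of the 5 lists the share called higher was 0, beside the 3.34% of all genes. In the inhibitory list it was 1 of 6 tested, which was HLA-B, tested only through its EZH2i libraries. That share is therefore not set against the 3.34%.

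**Figure D5:**
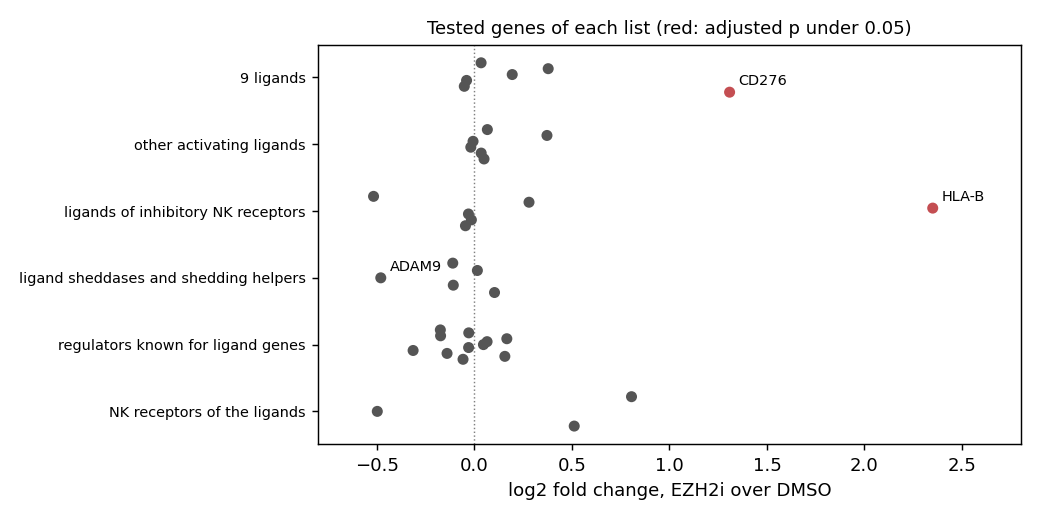
Log2 fold change of EZH2i over DMSO (horizontal axis) for each tested gene of the 9 ligands and of the 5 lists of related genes, with red for adjusted p under 0.05. CD276 at 1.31 and HLA-B at 2.35 are the red points, and ADAM9 at -0.48 is labelled as the lowest of the sheddases.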

How the data were processed

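Gene counts of 6 QuantSeq 3′ libraries of the K562 clone, 3 DMSO and 3 EZH2i, were used. The authors deposited raw read counts per Ensembl gene for each library, unpooled. The submitters' processing notes name STAR 2.6.0c, HTSeq 0.11.2, DESeq2 and the GRCh38 build, and the strand setting and counting mode are not given in the sources used here. Their comparison table (mean normalized count, log2 fold change, standard error, Wald statistic, p-values) was not used. Rows that name no gene were left out, and genes held 63.6% to 67.9% of listed reads.

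The test was that of edgeR 4.0.16, run in R 4.3.3 (TMM, filterByExpr with a minimum count of 10, glmQLFit with its default options, glmQLFTest, two-sided, Benjamini-Hochberg over 12364 genes, threshold 0.05, common dispersion 0.0129). The standard error is the size of the log2 fold change over the square root of F. Scripts were tested on simulated data. Read totals of untested members were compared by exact binomial intervals of their ratio, which, like floors of 3 reads, cover counting error only. Replicate pairs gave chi-square values of 4.25 to 11.5 per degree of freedom, above sampling noise, so none are copies. DESeq2 1.42.0, limma 3.58.1 and other settings were alternatives.

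Positions, ends and symbols come from GENCODE version 44 (60401 of 60671 identifiers matched) and promoters from RefSeq on GRCh38.p14, where all 9 members matched. The members and lists were chosen with earlier results of these data known. Named were the 9 members, EZH2, genes of each list that passed the test, and the 3 genes nearest in profile to the member with the smallest p. Genes named outside this rule, chosen after their values were seen, are BCAM and MPIG6B, ICAM2, ADAM9, ATF4, HLA-C, RAET1G and the genes listed at 0 reads. The NK markers NCR1, KLRF1, NCR3, NKG7 and PRF1 are named in the same way. Genes named for an overlap with another gene are PRR29, HBG1, HBE1, CD68, RBM4, RBM14-RBM4, KLRK1 and KLRC4-KLRK1. One gene of the lists is not reported here by name.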

Additional observations from a re-analysis of the deposited data

Results flagged for a closer look

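ULBP2, ULBP3 and PVR, which the test left out for low counts, had more reads in EZH2i than in the DMSO controls. ULBP2 had 24 reads in the 3 EZH2i libraries together and 12 in the 3 DMSO libraries. PVR had 13 reads in the 3 EZH2i libraries together and 1 in the 3 DMSO libraries, and its end lies under another gene of the same strand, whose part in the count was not tested. ULBP3 had 37 reads in EZH2i and 13 in DMSO, but unlike those of ULBP2 and PVR its CPM values overlapped between the groups.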

How the results depend on the processing

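CD276 was called higher in all 13 alternatives, with log2 fold changes of 1.22 to 1.41, and was the only member called except without EZH2i replicate 1, where NECTIN2 joined it, so the number of members called ranged from 1 to 2 with libraries left out. Over all genes, 413 were higher and 114 lower. With libraries left out these were 180 to 412 and 20 to 124, where leaving out a DMSO library gave 180, 189 and 185 higher and 33, 20 and 55 lower. At an adjusted p under 0.01 they were 135 and 13, without the filter on low counts 579 and 349, and with DESeq2 292 and 143. The median log2 fold change of all genes was 0.05 with DESeq2 and 0.04 without the filter. The ligands of inhibitory receptors had 1 gene higher, 2 without the filter (HLA-B, and HLA-C at adjusted p = 0.0138), 0 with 10 reads required in every library or at 0.01, and 0 to 1 with libraries left out, 0 without DMSO replicate 1 or 3. Of the sheddases, 1 (ADAM9) was lower with DESeq2-style size factors (RLE, adjusted p = 0.0498) and 1 without the filter (adjusted p = 0.0250). Signs turned for MICA (log2 fold changes of -0.122 to 0.0325 with libraries left out), MICB (-0.112 to 0.0295) and ULBP1 (-0.0625 to 0.163), none of them called. The MICA share difference ranged from -1.36 to 0.427 percentage points, and that of PVR from 0.795 to 2.11. The causes were not tested, beyond the smaller number of samples or genes that a setting leaves. The alternatives of edgeR's newer dispersion option and of limma-voom were added after seeing the data.

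The replicate numbers of the groups did not pair the samples. Libraries of the same number deviated from their group means with correlations of -0.0511, -0.0175 and -0.017. With the number as a block, 450 genes were higher and 149 lower, and no call of a member or list changed. The read totals of ULBP2, ULBP3 and PVR differed between the groups beyond counting error, but edgeR called none of them in the fits that included them.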
